A study of Mus musculus with 52 samples.

Results

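This module holds genes whose RNA was lower in mammary tumours of old hosts than in those of young hosts in nearly every pair of libraries. A gene entered when its mean was at least 2 TPM (a transcript level scaled by library depth and gene length) over 52 libraries and the old library was lower in at least 97.0% of the 667 old-young pairs, with a tie counted as 0.5 of a pair. Of 47729 genes, 12649 reached that mean, and 21 of them (0.166%) passed the share. Mup9, Mup10 and Cyth1 are set aside by the rule, which leaves 18 members. The members were thus chosen by their TPM in old against young libraries, and every old-young value below is a description without a test. In the opposite direction, 113 genes (0.893%) were higher in old hosts in the same share of pairs.

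The tumours grew from 100000 cells of 4T1, a mouse mammary carcinoma line, placed in the 4th left mammary fat pad of Balb/C mice. Young hosts were 8 to 10 weeks old by their labels, with a protocol range reaching 12 weeks, and old hosts were over 12 months. Antibody was injected intraperitoneally into all hosts, 200 µg at a time, on day 7, day 10 and day 13 (3 doses). It was anti-CTLA4 (clone 9D9), anti-PD-L1 (clone 10F.9G2) or the isotype control (clone LTF-2). Isotype was given to 7 young and 7 old hosts, anti-PD-L1 to 10 and 8, and anti-CTLA4 to 12 and 8, counted as libraries. RNA came from whole tumours of at most about 150 mm3, so fewer cells of a type and less RNA per cell cannot be told apart. The implanted 4T1 cells are the same line in all groups, and only the host differs in age. Total counts were 18451932 to 46165114 in old (median 22504211) and 9549847 to 53778370 in young libraries (median 16327009). Sequencing ran in 3 batches that were not balanced: batch 2 held 19 young and no old libraries, batch 1 held 18 old and 4 young (all anti-CTLA4), and batch 3 held 5 old and 6 young. The labels number the replicates as biological but do not name the animal, and the tests below therefore use the spread from library to library, part of which may be technical.

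Several members belong to known immune gene families. CC chemokines such as Ccl7 and Ccl8 are secreted proteins that draw monocytes and other leukocytes into tissue, and in tumours they are made mainly by macrophages and stromal cells. Mast cells store chymases and tryptases in granules and release them on activation, and MHC class I molecules present peptides to CD8+ T cells or are read by other lymphocytes. Processed pseudogenes are copies of a spliced messenger RNA set back into the genome, and short reads can match the parent gene and its copies alike.

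By annotation, 9 members were protein-coding, 3 were processed pseudogenes, 2 carried the provisional class TEC (to be experimentally tested), and antisense, lincRNA, polymorphic pseudogene and processed transcript had 1 each. A BLAST search of each member's transcripts against all annotated transcripts found that 10 of the 18 had at least 1 other gene matching at 90% identity or more over at least 80% of a transcript, and 6 had an identical match. The remaining 8 had none: Ccl7, Ccl8, Wfdc17, Mcpt1, Serpinb2, Ndufa3, Gm37800 and G530011O06Rik.

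Gm14303 lies whole and identical within a transcript of Rps29, a gene of the small ribosomal subunit, and Gm10059 and Gm7079, which are other copies and not members, differ from it at 3 and 4 bases.

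Gm21860 and Gm21748, which sit 84.0 kb apart on chromosome Y, have the same 309 bases, and those bases also lie whole within G530011O06Rik on chromosome X, at positions 232 to 540 of its 2380-base transcript. The first 120 of the 309 bases (gene Gm21860, chrY:90754513-90754821, minus strand, GRCm38) are shown because all 3 members share them.
Gm21860: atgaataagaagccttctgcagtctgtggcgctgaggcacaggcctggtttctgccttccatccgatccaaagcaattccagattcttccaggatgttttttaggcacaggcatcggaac

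Promoter sequences were given for 7 members in a RefSeq table (GRCm38.p6). Those of Ccl8 (chr11:82114935-82115184, plus strand) and Mcpt1 (chr14:56017714-56017963, plus strand) are shown because their levels moved together between libraries, as described below. Each line gives the 250 bases before the start, and the capitals mark a TATA box match.
Ccl8: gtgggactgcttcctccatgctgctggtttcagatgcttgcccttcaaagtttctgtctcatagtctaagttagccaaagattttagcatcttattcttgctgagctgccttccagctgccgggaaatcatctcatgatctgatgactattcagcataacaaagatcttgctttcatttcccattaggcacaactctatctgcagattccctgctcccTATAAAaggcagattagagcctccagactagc
Mcpt1: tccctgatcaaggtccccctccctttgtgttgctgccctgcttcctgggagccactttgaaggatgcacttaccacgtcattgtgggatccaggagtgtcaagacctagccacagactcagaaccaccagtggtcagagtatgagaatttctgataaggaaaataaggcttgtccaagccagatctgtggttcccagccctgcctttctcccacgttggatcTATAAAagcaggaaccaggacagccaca

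The match begins 32 bases before the start in Ccl8 and 28 bases before it in Mcpt1. Searched on both strands, the letters TATAAA occurred in 12.4% of 32851 promoters of the same length. Serpinb2 also held the match, 29 bases before its first listed start, as did Gm8909 at 31 bases and Ndufa3 at 166. Of 6 motifs searched, 1 is not reported here. The other motifs were TGANTCA for AP-1, TTNNGNAA for C/EBP, AGATAA for GATA factors and CACGTG for E-boxes, which were in 6.75%, 36.8%, 9.99% and 6.02% of promoters. None of these 4 occurred in the Ccl8 or the Mcpt1 window, which says only that the letters are not there. A match of letters is no sign of binding.

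The level of every member in each library is drawn by age, antibody and batch.

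**Figure D1:**
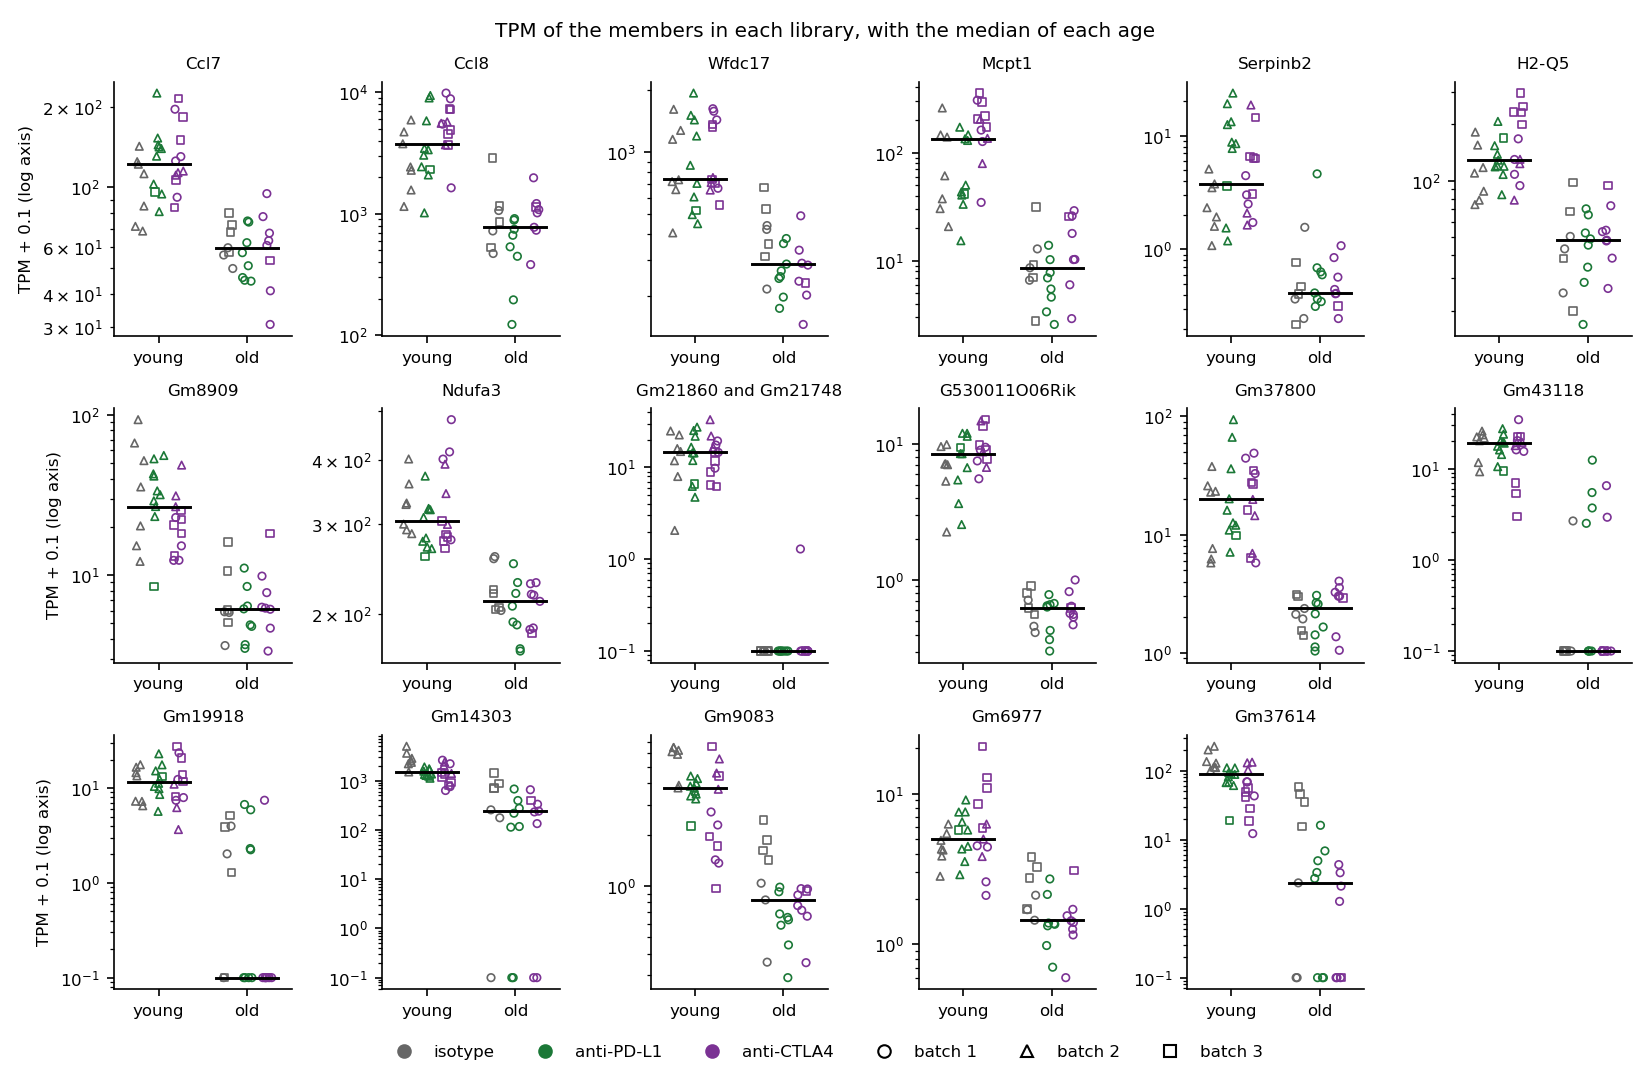
TPM plus 0.1 on a log axis for each member in the 29 young and 23 old libraries, with colour for antibody, symbol for batch and a line at the median of each age; Gm21748 has the same values as Gm21860. The members differ in how far apart the ages lie: the median of Ndufa3 was 1.44 times as high in young as in old libraries, and that of Gm37614 39.0 times.

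Among the chemokines, Ccl8 (chr11:82115185-82116799) had the highest level of the module. Its lowest, median and highest TPM were 1018, 3767 and 9851 in young libraries and 123, 774 and 2889 in old ones. The ranges met, with 7 old libraries at or above the lowest young one and 9 young libraries at or below the highest old one. By antibody, its median was 2427 in young and 854 in old hosts under isotype, 3198 and 599.8 under anti-PD-L1, and 5510 and 1049 under anti-CTLA4. The ages did not overlap under anti-PD-L1, whereas under isotype old replicate 4 alone reached 2889, against 1163 in the next old library. Ccl7 (chr11:82045712-82047525), which lies 67.7 kb from Ccl8, had 68.5, 122 and 225 TPM in young and 30.7, 59.4 and 94.6 in old libraries. Its median in young hosts was 2.05 times that in old ones, a narrower gap than the 4.87 times of Ccl8.

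Just outside the threshold stood Ccl1 and Ccl2 of the same cluster, each with a share of 96.7%, and the class I pseudogene H2-T-ps with 96.6%. The members just inside were Ccl8, Gm14303 and Gm37614, each with 97.0%. Of the 14 Ccl genes with a mean of at least 2 TPM that are not members, 4 had a share of at least 90%, against 1.05% of all genes, and their median share was 76.0% against 45.9% for all genes. Ccl2, the classical monocyte attractant, had medians of 110 TPM in young and 46.6 in old libraries. Eotaxin, Ccl11, lies in the same cluster and had medians of 40.4 and 34.9 with a share of 59.4%, and Ccl12 had 66.0%. These family lists were drawn up after the members' values were known.

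Among 25 listed chemokines and receptors that are not members, edgeR's quasi-likelihood test with Benjamini-Hochberg adjustment over 17899 genes put 2 lower and 0 higher in old than in young hosts under isotype. Under anti-PD-L1 it put 5 lower and 1 higher, and under anti-CTLA4 17 lower and 0 higher. Over all genes tested, 4.04% were lower and 4.36% higher under isotype (8.41% in all), 1.97% lower and 3.08% higher under anti-PD-L1 (5.04%), and 15.9% lower and 14.8% higher under anti-CTLA4 (30.6%). The listed genes' median log2 differences were -0.63, -1.15 and -1.27, beside -0.09, -0.06 and -0.06 for all genes.

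Wfdc17 (chr11:83703991-83706268), a small secreted WAP-domain protein of macrophages, lies 1.59 Mb from Ccl8. Young libraries ran from 406 to 1930 TPM with a median of 738, and old ones from 146 to 674 with a median of 287. Under anti-PD-L1 and under anti-CTLA4 the ages did not overlap; under isotype the share of pairs was 89.8%. Its neighbours within 250 kb included Ccl6 with a share of 94.5% and Ccl9 with 86.2%, and the median of the 10 neighbours was 69.7%.

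Pooled over the antibodies, the summed markers of macrophages lay closer between the ages than these 3 genes. The summed TPM of 11 macrophage markers ran from 2638 to 11553 (median 6679) in young and from 2759 to 10342 (median 5695) in old libraries, with a share of 58.9%, and none of the 11 reached a share of 90%. By antibody the order of the ages changed. The median sum was 3241 in young and 4642 in old hosts under isotype, 6485 and 5739 under anti-PD-L1, and 7917 and 6194 under anti-CTLA4. Under anti-CTLA4, 4 of the 11 were lower in old hosts by edgeR's test, and 0 were under isotype or anti-PD-L1. Neutrophil markers were further apart: the sum of 10 ran from 404 to 5007 (median 1491) in young and from 275 to 8351 (median 683) in old libraries, a share of 81.9%. Of those 10, edgeR put 0 lower under isotype, 6 under anti-PD-L1 and 10 under anti-CTLA4. Carcinoma epithelial markers went the other way, with sums of 307 to 2559 (median 1360) in young and 768 to 2480 (median 1820) in old libraries. The sum of 8 skeletal muscle markers was the list furthest apart in that direction, with medians of 11.6 in young and 27.2 in old libraries and a share of 4.50%. T and NK cell markers had a share of 64.6%, and 13 of 15 were lower in old hosts under anti-CTLA4 by edgeR, against 0 under isotype and 0 under anti-PD-L1. The part of these cell types in the members' gaps was not tested.

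Mcpt1 (chr14:56017971-56020384), a chymase of mucosal mast cells, had 15.2, 134 and 355 TPM as lowest, median and highest in young libraries and 2.48, 8.53 and 31.5 in old ones. Only 5 old libraries were at or above the lowest young one. By antibody the medians were 60.9 in young and 8.53 in old hosts under isotype, 46.6 and 6.12 under anti-PD-L1, and 188 and 14.0 under anti-CTLA4. The ages were apart without overlap under both checkpoint antibodies, and under isotype the share was 95.9%. Mcpt2, the neighbouring mucosal mast cell chymase, had medians of 118 and 26.2 TPM and a share of 95.8%. The 2 other genes named Mcpt with a mean above 2 TPM were less apart or reversed, with shares of 73.9% for Mcpt4 and 31.5% for Mcpt8. Cma1, a further chymase gene, had medians of 24.2 TPM in young and 11.7 in old libraries and a share of 78.7%.

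Other genes of mast cells had smaller gaps. In a list of 9 that excludes the genes named Mcpt and includes Cma1, 7 had a mean of at least 2 TPM. All 7 had shares above 50%, with a median of 79.2% and a range of 55.8 to 91.9%. Tpsab1, a tryptase, had medians of 72.2 TPM in young and 20.2 in old libraries. Kit, the mast cell growth factor receptor, had 2.51 and 2.16 with a share of 55.8%, and Cpa3, a granule carboxypeptidase, had 15.9 and 9.89 with 74.2%. The gap in Mcpt1, at 15.7 times between medians, stood beside a gap of at most 3.58 times in the 7 genes. The part of mast cell number in the gap was not tested.

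Within an age, Mcpt1 and Ccl8 moved together from library to library. Antibody groups were pooled in the correlations and in their permutations. Over 29 young libraries the correlation of log2 values (TPM plus 0.1) was r = 0.82 by Pearson and rho = 0.76 by Spearman. Each had a permutation p of 1e-05, the smallest that 100000 resamples can give, and an adjusted p of 0.00109. Over 23 old libraries the correlation was r = 0.64 (permutation p = 0.0009, adjusted 0.0223) and rho = 0.80 (permutation p = 3e-05, adjusted 0.00198). In both ages the medians of both genes were highest under anti-CTLA4, and the part of antibody in the relation was not tested. Without the 2 libraries farthest from the median of Mcpt1, r was 0.83 in young and 0.58 in old hosts. Inside the largest batch of each age the relation was r = 0.81 and rho = 0.82 over 19 young libraries of batch 2, and r = 0.77 and rho = 0.91 over 18 old libraries of batch 1.

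This pair came from 544 relations (136 pairs of 17 members, in 2 ages, by 2 measures), over which p-values were adjusted. Of the 136 pairs, 18 passed on both measures in young hosts, 3 in old hosts and 2 in both. The other pair of the 2 was Gm37800 with Ccl7, with r = 0.54 and rho = 0.52 in young (adjusted permutation p = 0.034 and 0.0481) and r = 0.59 and rho = 0.62 in old hosts (adjusted permutation p = 0.0343 and 0.0317). In 19 young libraries of batch 2 this second relation was r = 0.43 and rho = 0.22, and in 18 old libraries of batch 1 it was r = 0.72 and rho = 0.82. Leaving out the 2 libraries farthest on Gm37800 gave r = 0.48 in young and 0.49 in old hosts.

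**Figure D2:**
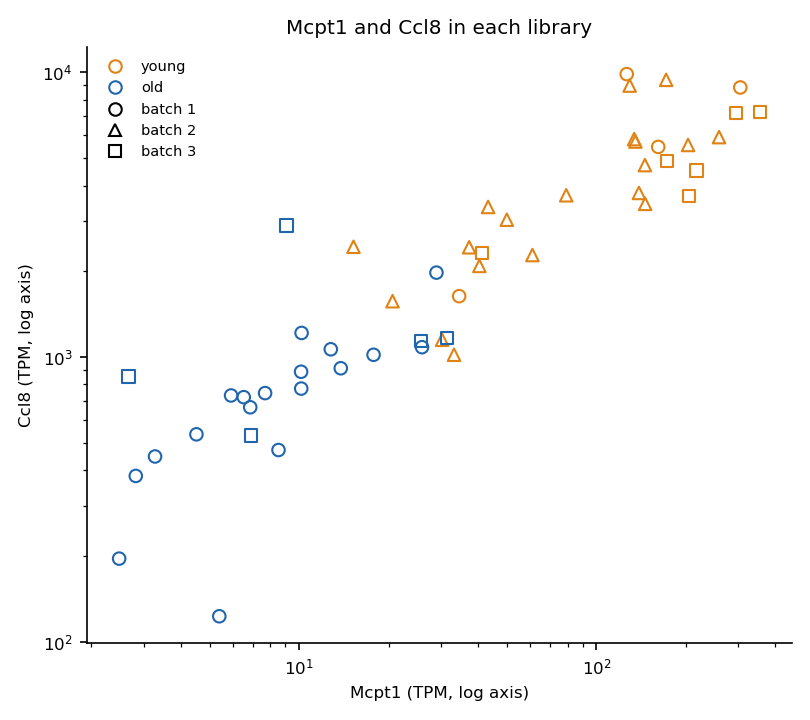
Mcpt1 against Ccl8 in TPM on log axes, with 1 symbol per library, colour for age and shape for batch. Within both ages Ccl8 was higher where Mcpt1 was higher, with r = 0.82 over 29 young and 0.64 over 23 old libraries.

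Serpinb2 (chr1:107511423-107535478), a plasminogen activator inhibitor that macrophages induce on activation, was low in all libraries. Young ones ran from 0.979 to 23.6 TPM with a median of 3.66 and old ones from 0.118 to 4.51 with a median of 0.313. Old anti-PD-L1 replicate 2 was the library at 4.51, and 16 young libraries lay at or below it, whereas the next old library of that group had 0.588. The young medians were 2.22 under isotype, 8.53 under anti-PD-L1 and 3.66 under anti-CTLA4, beside 0.303, 0.405 and 0.326 in old hosts. The 5 other Serpinb genes with a mean of at least 2 TPM had a median share of 44.8%, and none reached 90%.

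Both class I members lie on chromosome 17, 767 kb apart. H2-Q5 (chr17:35394126-35397800), annotated as a polymorphic pseudogene of the Qa region, had 74.2, 129 and 294 TPM in young and 16.8, 47.8 and 97.3 in old libraries. Only 2 old libraries were at or above the lowest young one. Its gap between medians was 2.55 times under isotype, 2.66 under anti-PD-L1 and 2.95 under anti-CTLA4. Gm8909 (chr17:36164443-36168537), annotated as protein-coding among the H2-T genes, had 8.38, 26.6 and 93.3 TPM in young and 3.26, 6.02 and 18.1 in old libraries.

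Related class I genes had the old library lower as well, though in fewer pairs. All 7 other H2-Q genes had shares of 74.7 to 93.4% with a median of 79.5%, and the 5 H2-T genes had a median of 91.2%. H2-K1 and H2-D1, the classical presenting molecules, had 85.2 and 76.9%. A 172-base transcript of H2-Q5 is identical to bases of H2-Q7, and H2-Q6 matches a 998-base transcript at 93.3%, so reads may have been divided among them. Summed over the 3 genes, the medians were 443 TPM in young and 216 in old libraries and the share was 95.4%. Gm8909 matched 9 class I genes at 90.4 to 92.3% identity, and the sum over all 10 genes had medians of 3482 and 2012 and a share of 83.1%.

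Ndufa3 (chr7:3617373-3620327), an accessory subunit of mitochondrial complex I, had the smallest ratio and nearly complete separation. Young libraries ran from 259 to 481 TPM with a median of 304, and old ones from 169 to 259 with a median of 212. In 1 of the 667 pairs the old library was higher (259.0 in an old isotype library against 258.8 in a young anti-PD-L1 library). The gap between medians was 1.49 times under isotype, 1.48 under anti-PD-L1 and 1.41 under anti-CTLA4. None of the 12 other Ndufa subunits reached a share of 90%, and their median was 57.1%, with a range of 12.7 to 84.0%. Its 12 measured neighbours within 250 kb had a median share of 54.2%, and Rps9, a highly expressed one of them, had 46.3%.

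The 3 members that share the 309 bases also separated the ages fully. Gm21860 and Gm21748 had identical values in all 52 libraries, and these ran from 1.96 to 33.0 TPM with a median of 14.5 in young hosts. In 22 of 23 old libraries both were at 0, and in old anti-CTLA4 replicate 5 they were at 1.19 TPM, from 4 counts. G530011O06Rik (chrX:169975043-169978917) had 2.15, 8.34 and 14.9 TPM in young and 0.203, 0.528 and 0.903 in old libraries. Its gap between medians was 13.3 times under isotype, 15.4 under anti-PD-L1 and 17.7 under anti-CTLA4.

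Because the 309 bases are common to the 3 genes, they are not independent readouts, although each count of members below includes all 3. Genes specific to the Y chromosome were not above a mean of 2 TPM. Of 4 other genes at the same end of chromosome X with a mean of at least 2 TPM, listed after the values were seen, Mid1 had medians of 8.66 TPM in young and 2.51 in old libraries and a share of 95.2%. The other 3 went the opposite way, with shares of 15.3% for Hccs, 16.2% for Msl3 and 22.3% for Arhgap6.

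Gm37800 (chr1:184610280-184629473), a long intergenic RNA, separated the ages fully. Young libraries ran from 5.66 to 93.6 TPM with a median of 19.7, and old ones from 0.936 to 3.94 with a median of 2.27. Medians were 22.7 in young and 2.02 in old hosts under isotype, 14.2 and 1.80 under anti-PD-L1, and 23.2 and 2.91 under anti-CTLA4. None of its 3 neighbours within 250 kb shared this: their median share was 49.8%, and Hlx, a homeobox gene, was highest with 83.8%.

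Gm43118 (chr5:111387515-111388289) and Gm19918 (chr1:156678545-156678944) each match, over their whole length, bases of a coding gene on the other strand. Gm43118 had 2.90, 19.1 and 34.2 TPM in young libraries and was at 0 in 16 of 23 old ones, with a highest old value of 12.3. Pitpnb, the lipid transfer protein gene on the other strand, was higher in old hosts, by 0.48 ± 0.13 (SE, log2) under isotype (edgeR adjusted p = 0.0147), 0.45 ± 0.13 under anti-PD-L1 (adjusted p = 0.0275) and 0.47 ± 0.09 under anti-CTLA4 (adjusted p = 9.19e-05). The sum of Gm43118 and Pitpnb had medians of 47.1 TPM in young and 41.7 in old libraries and a share of 62.8%. Gm19918 had 3.55, 11.6 and 27.5 TPM in young libraries and was at 0 in 13 of 23 old ones, with at most 7.34. With Fam20b, the gene opposite, its sum had medians of 28.1 and 18.4 and a share of 80.8%. The library kit marks strand, and the sources do not state if Salmon took strand into account, so a read may have been assigned to either partner.

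Gm14303, the copy of Rps29, had 630, 1499 and 4980 TPM in young libraries. Old ones ran from 0 to 1416 with a median of 240, and 5 of 23 were at 0. Rps29 itself had medians of 4607 in young and 3861 in old libraries, and Gm10059 and Gm7079 had shares of 95.8 and 96.1%. Summed with its 10 copies, medians were 6856 and 4339, 1.58 times apart where Gm14303 alone was 6.25 times apart, and the share was 98.4%. Rps29 was lower in old hosts by edgeR under anti-CTLA4 (-0.86 ± 0.23, adjusted p = 0.00445), with -0.46 ± 0.34 under isotype (adjusted p = 0.413) and -0.70 ± 0.33 under anti-PD-L1 (adjusted p = 0.21).

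For the last 3 pseudogene or unclassified members the sum with the copies had a smaller gap than the member alone. Gm9083 (chrX:20239469-20240287), a pseudogene of the ribosomal protein gene Rpsa, had medians of 3.67 TPM in young and 0.727 in old libraries. With Rpsa and 9 other copies the medians were 2223 and 2231 and the share 58.5%, and Gm9083 was 0.171% of the young sum. Gm6977 (chrX:90744546-90745062), a pseudogene of the ferritin heavy chain gene Fth1, had medians of 4.90 and 1.35, and its sum with Fth1 had 7621 and 4864 with a share of 93.6%. Gm6977 was 0.075% of the young sum, and Fth1 alone also had a share of 93.6%. Fth1 was lower in old hosts by edgeR under anti-PD-L1 (-1.14 ± 0.31, adjusted p = 0.0237) and anti-CTLA4 (-1.28 ± 0.21, adjusted p = 1.5e-05), with -0.87 ± 0.31 under isotype (adjusted p = 0.0702).

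Gm37614 (chr9:88826604-88826813, 210 bases) had the widest ratio of medians, 39.0 times, among the 14 members with an old median above 0, whereas its ratio of means was 10.1, below the 11.6 of Mcpt1 and the 16.0 of G530011O06Rik. Young libraries ran from 12.2 to 226 TPM with a median of 88.4, old ones from 0 to 57.6 with a median of 2.27, and 9 of 23 old libraries were at 0. Its 8 copies, 5 of them on the opposite strand and including a stretch of the clock-linked gene Noct, match at 93.3 to 99.5%. Summed with the copies on its own strand, medians were 236 in young and 202 in old libraries with a share of 65.5%. Over both strands the sum went the other way, with medians of 780 and 1109 and a share of 16.2%. Noct had medians of 210 in young and 373 in old libraries.

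**Figure D3:**
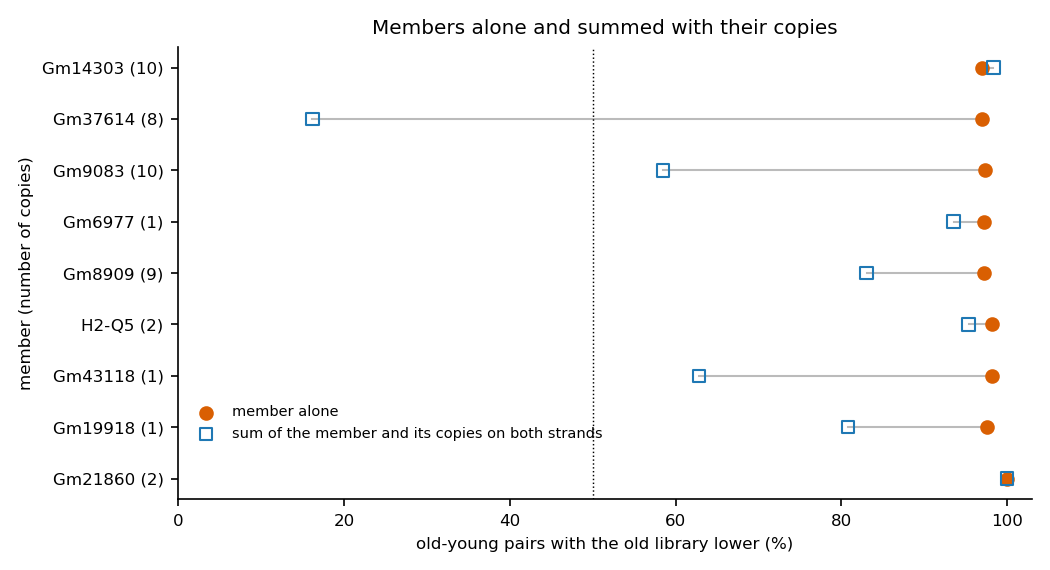
Share of old-young pairs with the old library lower, for each member that has copies by the BLAST search. Filled circles give the member alone, and open squares its summed TPM with the copies on both strands. The number of copies is in parentheses, and a dotted line marks 50%. The share was above 93% in the sums of Gm14303, H2-Q5 and Gm6977, and was 58.5% for Gm9083 and 16.2% for Gm37614. Fth1 made up nearly all of the Gm6977 sum. The copies of Gm21860 are Gm21748 and G530011O06Rik, members chosen by the same rule, so the 100% of its sum follows from that choice.

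In each antibody group the gap was present but not of the same completeness. Young and old libraries did not overlap in 10 of the 18 members under isotype (background 0.933% of genes), in 14 under anti-PD-L1 (0.704%) and in 10 under anti-CTLA4 (0.316%). Over all libraries 4 members did not overlap (0.0474%): Gm37800, Gm21860, Gm21748 and G530011O06Rik. These counts rest on the contrast that chose the members, so nothing is read from their height. The lowest share of a member was 89.8% under isotype, 96.2% under anti-PD-L1 and 94.8% under anti-CTLA4. Median ratios of young over old medians over members with an old median above 0 were 4.60 under isotype (15 members), 7.11 under anti-PD-L1 (16 members) and 4.65 under anti-CTLA4 (14 members).

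In edgeR's fit with a batch term, the old-young difference was negative for all 18 members in each antibody group. Ccl8 differed by -1.66 ± 0.67 (SE, log2) under isotype, -3.08 ± 0.66 under anti-PD-L1 and -2.90 ± 0.45 under anti-CTLA4. Mcpt1 differed by -3.44 ± 0.78, -3.58 ± 0.76 and -3.72 ± 0.52, a range within its SE. For Gm37614 the values were -1.15 ± 1.07, -2.50 ± 1.07 and -5.06 ± 0.84. Ndufa3, the member with the smallest gap, had -0.68 ± 0.36, -0.96 ± 0.35 and -1.24 ± 0.24. These are differences given without a test. No batch held both ages under isotype or under anti-PD-L1, so there the age difference rests on a batch term estimated from the other groups.

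**Figure D4:**
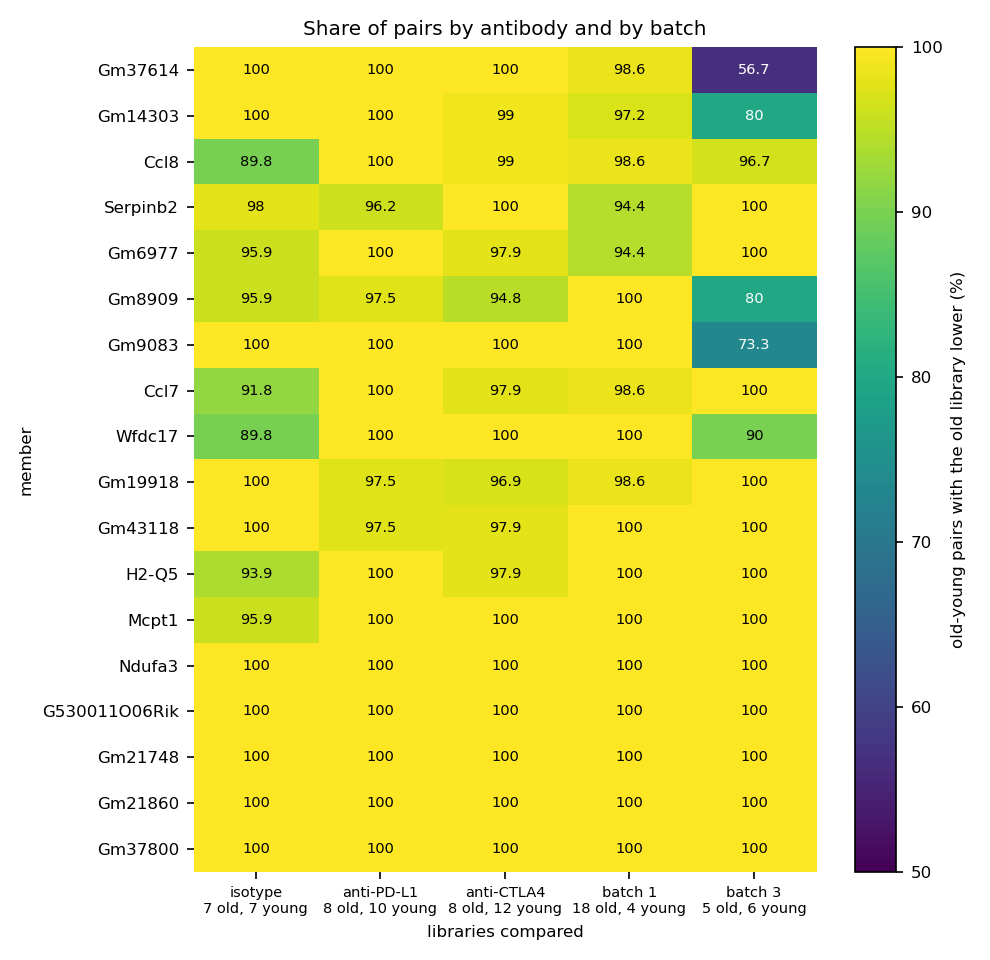
Share of old-young pairs with the old library lower (colour and number, in percent) for each member (rows) in the 3 antibody groups and in batches 1 and 3 (columns, with the number of libraries). Shares were lowest in batch 3, where Gm37614 had 56.7% and Gm9083 73.3%, whereas in batch 1 none was under 94.4%.

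Batch 1 was the only batch in which many old libraries stood beside young ones, 18 against 4. There 11 of the 18 members did not overlap (1.35% of genes), and the lowest share was 94.4%, in Serpinb2 and Gm6977. In the 4 young libraries (anti-CTLA4 replicates 5, 6, 8 and 9) Ccl8 was at 1635, 5467, 9851 and 8842 TPM, against 123 to 1977 in the old ones. Replicate 5 was the lowest of the 4 for Ccl8 and overlapped the old range, while the other 3 lay well above it. Mcpt1 was at 34.5, 161, 126 and 305 TPM in the same 4, and all 18 old libraries were lower. Ndufa3 was at 279, 416, 481 and 402, against 169 to 259, and its gap between medians was 1.91 times in batch 1 and 1.36 times in batch 3.

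Replicate 5 was also lowest for Wfdc17, with 668 TPM against 1431, 1621 and 1576 in the others and 146 to 491 in old hosts, and for Gm37800, with 5.67 against 44.2, 48.7 and 32.7. Without that library the count without overlap in batch 1 was 14 of 18, and it was 11 or more with any other library of the batch left out. Taking anti-CTLA4 libraries alone in batch 1, 7 old against 4 young, 14 of 18 members did not overlap, beside 2.41% of genes. The 4 that overlapped were Gm19918, Ccl7, Ccl8 and Gm14303, each with a share of 96.4%.

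Batch 3, with 5 old (4 isotype and 1 anti-CTLA4) and 6 young libraries (5 anti-CTLA4 and 1 anti-PD-L1), had 12 of 18 without overlap (1.64% of genes), but 4 members were far less separated there. Gm37614 had 0, 15.5, 35.3, 46.3 and 57.6 TPM in the 5 old and 18.6, 18.8, 28.1, 41.8, 49.2 and 56.0 in the 6 young libraries, and the old library at 0 was the anti-CTLA4 one. Its share was 56.7%, against 98.6% in batch 1. Gm9083 had a share of 73.3%, and Gm14303 and Gm8909 had 80% each. All 4 have copies by the BLAST search, as do H2-Q5, Gm21860, Gm21748, Gm43118, Gm19918 and Gm6977, which had 100% in batch 3. Of the members without a copy, Ccl7, Mcpt1, Serpinb2, Ndufa3, Gm37800 and G530011O06Rik also had 100%, Ccl8 had 96.7% and Wfdc17 90%.

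Batch differences at equal age and antibody were tested directly. Gm8909 was higher in batch 2 than in batch 1 by 1.51 ± 0.32 (SE, log2, edgeR adjusted p = 0.00494), the only one of the 18 that passed, against 0.899% of all genes. Its young libraries had a median of 33.4 TPM in batch 2 (7 isotype, 9 anti-PD-L1 and 3 anti-CTLA4) and 13.7 in batch 1 (4 anti-CTLA4). Its old-young gap was 4.42 times over all libraries and 2.32 times within batch 1. These TPM values mix antibody with batch, and the part of each was not tested. Gm6977 was higher in batch 3 than in batch 1 by 1.12 ± 0.26 (edgeR adjusted p = 0.00479), again 1 of 18, against 6.36% of all genes in either direction and 4.92% higher. Its young medians were 9.60 TPM in batch 3 (5 anti-CTLA4 and 1 anti-PD-L1) and 3.41 in batch 1 (4 anti-CTLA4).

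None of the 18 members passed edgeR's test for either antibody. Against isotype in young hosts, anti-PD-L1 passed in 0 of 18 (1.59% of all genes, 1.37% lower and 0.223% higher, and 4 members at an unadjusted p under 0.05) and anti-CTLA4 in 0 (0.0726% of genes, 0.067% lower and 0.00559% higher, and 0 members unadjusted). In old hosts both antibodies passed in 0 of 18, where the test called 0% of all genes after adjustment. At an unadjusted edgeR p under 0.05 stood 6 members each, beside 5379 of all 17899 genes for anti-PD-L1 and 5321 for anti-CTLA4. In young hosts the same unadjusted cut held 4339 genes for anti-PD-L1 and 1247 for anti-CTLA4. The members' median log2 difference was -0.32 for anti-PD-L1 and -0.11 for anti-CTLA4 in young hosts, and -0.65 and -0.49 in old hosts, beside medians of 0.02, -0.04, 0.05 and 0.02 for all genes. A p that misses the threshold does not show that the antibodies left the members as they were.

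Values nearest the threshold in old hosts were those of Wfdc17, Ndufa3 and Ccl8 for anti-PD-L1, followed by Gm37614, Wfdc17 and Ndufa3 for anti-CTLA4. For anti-PD-L1 against isotype in old hosts Wfdc17 had -1.43 ± 0.44 (edgeR adjusted p = 0.0878), Ndufa3 -0.88 ± 0.28 (adjusted p = 0.0878) and Ccl8 -1.41 ± 0.51 (adjusted p = 0.0878). Their medians under anti-PD-L1 and isotype in old hosts were 258 and 422 TPM for Wfdc17, 199.9 and 219 for Ndufa3, and 599.8 and 854 for Ccl8. These medians carry no batch term. All 8 old anti-PD-L1 libraries were of batch 1, and 4 of the 7 old isotype libraries were of batch 3. The fitted difference of batch 3 from batch 1 was -0.55 ± 0.33 for Wfdc17, -0.58 ± 0.22 for Ndufa3 and -0.25 ± 0.38 for Ccl8. With DESeq2 in place of edgeR, Wfdc17, Ndufa3, Ccl8 and Gm37614 passed for anti-PD-L1 in old hosts, with a tied DESeq2 adjusted p of 0.0456 each. DESeq2 called 1839 genes in all in that comparison, and 37 for anti-CTLA4 against isotype in old hosts. By edgeR, Wfdc17 had -1.33 ± 0.42 for anti-CTLA4 in old hosts (adjusted p = 0.0956) and Ndufa3 -0.82 ± 0.27 (adjusted p = 0.0956). Ccl8 had -0.53 ± 0.49 there (edgeR adjusted p = 0.476). Gm37614 had -4.18 ± 1.06 in the same comparison (edgeR adjusted p = 0.0956, DESeq2 adjusted p = 0.000398). Medians of Gm37614 there were 0.588 TPM under anti-CTLA4 and 15.5 under isotype. The 4 old isotype libraries of batch 3 ran from 15.5 to 57.6 TPM, the 3 of batch 1 were at 0, 2.27 and 0, and 7 of the 8 old anti-CTLA4 libraries were of batch 1; the part of batch was not tested beyond the batch term.

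**Figure D5:**
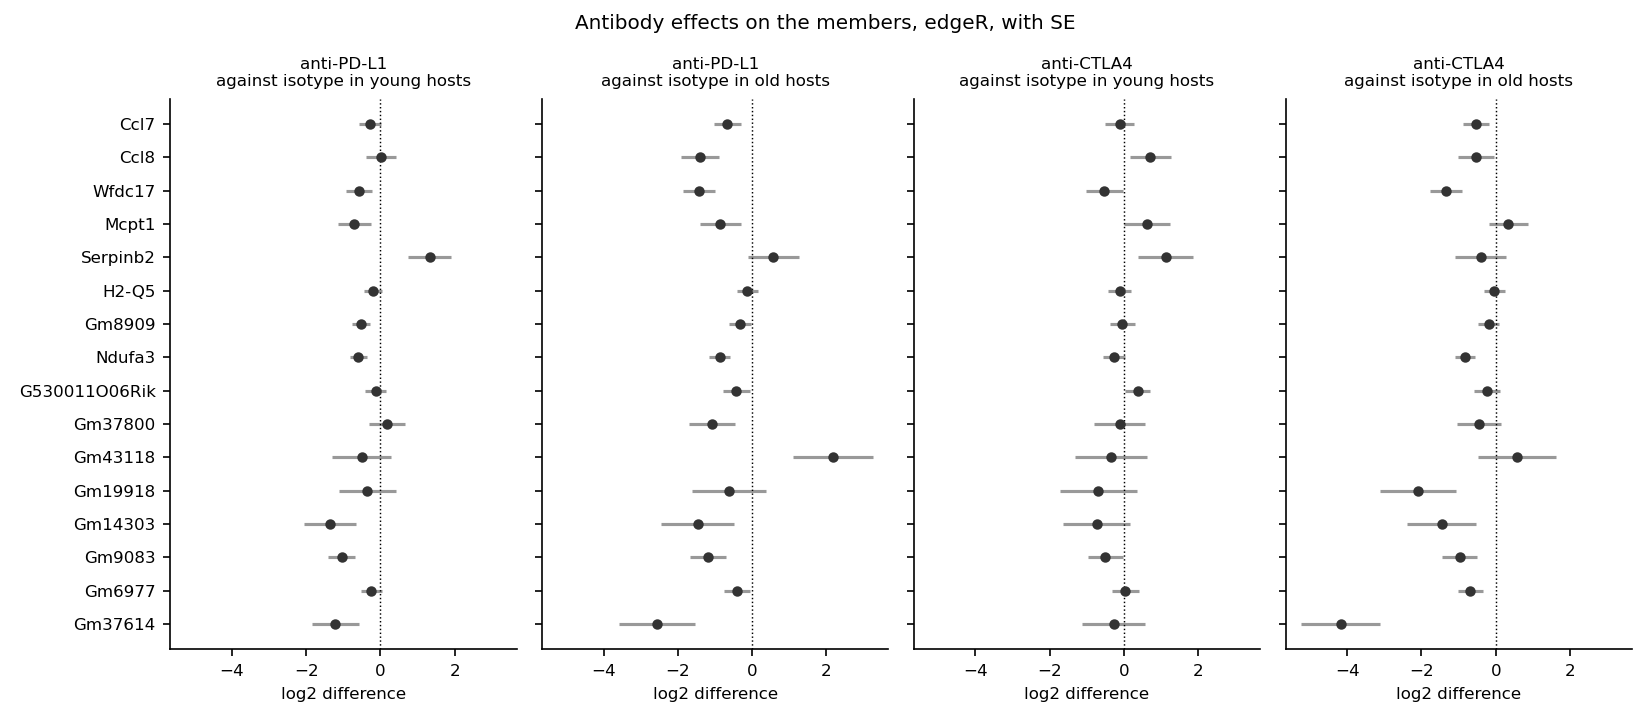
Log2 difference of each antibody from isotype with its SE (edgeR, 1 point per member) in young and in old hosts; Gm21860 and Gm21748 are not drawn because they are at 0 in old isotype and old anti-PD-L1 libraries. Most points in old hosts lie below 0, and none passed an adjusted p of 0.05.

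Whether the gap differed between antibodies was asked as the difference of the antibody effect between ages. It passed in 0 of 18 members for anti-PD-L1 and in 0 for anti-CTLA4, and edgeR called 0% of all genes in either. Beside 655 and 1257 of all 17899 genes at an unadjusted edgeR p under 0.05 stood 1 member each. Those members were Ccl8 for anti-PD-L1 (-1.42 ± 0.66, adjusted p = 1) and Gm37614 for anti-CTLA4 (-3.91 ± 1.29, adjusted p = 0.634). The wider fitted gap of Ccl8 under anti-PD-L1 than under isotype was thus not past the threshold.

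The module itself depends on the unit. On TMM-normalized CPM in place of TPM, 48 genes passed the same share, and 11 of the 18 members were among them. Ccl7, Wfdc17, Ndufa3, Gm14303, Gm9083, Gm6977 and Gm37614 were not, while Ccl8, Mcpt1, Serpinb2, both class I genes, Gm37800, Gm43118, Gm19918, G530011O06Rik, Gm21860 and Gm21748 were. With batch 1 alone 262 genes passed, among them 16 of the members, and without batch 1 there were 33, among them 8: Ndufa3, Serpinb2, Gm37800, Gm43118, Gm19918, G530011O06Rik, Gm21860 and Gm21748. Leaving out the single library old isotype replicate 7 left 16 genes, among them 15 of the members, and Ccl8, Gm14303 and Gm37614 were not among those.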

How the data were processed

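Tumour RNA of 52 libraries was measured by paired 75 base sequencing of a strand-marking messenger RNA library. The authors deposited estimated counts per gene and TPM per gene; Salmon, DESeq2 1.16.1 and the build mm10 are named in the submitters' processing notes, and how transcripts were summed to genes and whether strand was used are not given in the sources used here. A symbol was found for 47224 of 47729 identifiers. The members, the 24 gene lists and the families were chosen with earlier results of these data known. All members are named. Members, shares of pairs and medians were computed from TPM. Tests used edgeR 4.0.16 in R 4.3.3 (quasi-likelihood, limma 3.58.1) on estimated counts rounded to whole numbers, with genes of low counts filtered (17899 kept), TMM factors (0.618 to 1.21), a term for each age and antibody group and a batch term, with Benjamini-Hochberg adjustment and a threshold of 0.05; the procedure was tested on simulated data. Correlations used log2(TPM + 0.1) within an age, with the antibody groups pooled. Copies were found by BLAST at 90% identity and 80% coverage. Alternatives were DESeq2 1.42.0, CPM, other filters, no batch term, a replicate block, other thresholds and left-out libraries or batches. Some items are not reported here.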

Additional observations from a re-analysis of the deposited data

Results flagged for a closer look

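In 13 of 83 groups of member values 1 library stood apart from the rest by Dixon's criterion on TPM, and in all 13 it was the highest value. The criterion's rate of about 1 in 20 groups holds for normally distributed values. TPM has a floor at 0 and a long upper tail, so the count is not read against that rate. A group with all other libraries at 0 is flagged whatever its highest value. The group of 12 young anti-CTLA4 libraries was too large for the limits used and was left out. Among old isotype libraries, replicate 1 had 31.5 TPM of Mcpt1 (next 12.8), replicate 4 had 2889 of Ccl8 (next 1163), replicate 6 had 1.46 of Serpinb2 (next 0.663) and replicate 7 had 2.56 of Gm43118 (next 0). Among old anti-PD-L1 libraries, replicate 2 had 4.51 TPM of Serpinb2 (next 0.588), and replicate 7 had 12.3 of Gm43118 (next 5.35) and 16.1 of Gm37614 (next 6.78). Among old anti-CTLA4 libraries, replicate 8, the library of batch 3, had 18.1 TPM of Gm8909 (next 9.76) and 2.99 of Gm6977 (next 1.61). In the same group replicate 3 had 7.34 of Gm19918 (next 0), replicate 5 had 1.19 of Gm21860 (next 0) and replicate 6 had 6.39 of Gm43118 (next 2.83). The one young library was anti-PD-L1 replicate 6, with 225 TPM of Ccl7 (next 153).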

How the results depend on the processing

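The 18 members became 48 genes on TMM-normalized CPM, 36 at a share of 0.95, 5 at 0.99, 30 without libraries of a TMM factor under 0.8, 54 with batches 1 and 3 only, 33 without batch 1 and 262 in batch 1 only; without old isotype replicate 7 there were 16, with Ccl8, Gm14303 and Gm37614 lost. Members without overlap, with each library left out in turn (an alternative chosen after seeing the data), were 10 to 12 under isotype (highest without old isotype replicate 4), 14 to 15 under anti-PD-L1, 10 to 13 under anti-CTLA4 (highest without old anti-CTLA4 replicate 8) and 11 to 14 in batch 1 (highest without young anti-CTLA4 replicate 5). By edgeR 0 members passed for either antibody, and the counts below stand beside the number of all genes called in the same setting. Anti-PD-L1 in young hosts gave 2 with only the groups compared (142 genes), and in old hosts 4 with DESeq2 (1839 genes). Anti-CTLA4 in young hosts gave 2 with no batch term (1240 genes). In old hosts anti-CTLA4 gave 1 with no batch term (6 genes) and 1 with DESeq2 (37 genes). Batch 3 against batch 1 gave 2 with DESeq2 (1742 genes) in place of 1. With the replicate number as a block, batch 3 against batch 1 gave 0 (395 genes, Gm6977 at 1.01, edgeR adjusted p = 0.08). The block changed no other count of members. Replicate numbers gave little sign of pairing between groups. The median correlation of deviations from the group and batch fit was 0.0065 for same-numbered pairs and 0.0029 for other pairs. Of 113 same-numbered pairs 42 were over 0.1, a count not taken for the other pairs. Direction was compared for the ratios of medians, the fitted old-young differences and the batch calls, and none of these reversed. The directions of the members' antibody effects were not compared between settings. The causes of the changed counts were not tested. Batch 2 held no old library, and low members such as Gm21860 rest on few counts.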
